A study of Mus musculus with 12 samples.

Results

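The 10 genes described here encode surface or secreted molecules through which a macrophage co-stimulates or restrains a T cell. They are Cd80, Cd86, Cd40, Cd274, Pdcd1lg2, Icosl, Cd276, Slamf7, Cd48 and Lgals9. They were chosen by name as the B7 family, CD40 and related co-stimulatory or checkpoint molecules, with no measured value in the rule. All 10 symbols were among the 55487 genes of the count table, and all 10 passed the filter on low counts that left 15801 genes for testing. The cells were primary bone-marrow-derived macrophages, grown from mouse marrow with macrophage colony-stimulating factor and sequenced after poly-A enrichment. Fes-/- macrophages, which lack an intact gene for the cytoplasmic tyrosine kinase FES, were compared with Fes+/+ (wild-type) macrophages. Cells of each genotype received either lipopolysaccharide (LPS, 1 µg/mL, 4 hours), the outer-membrane molecule of Gram-negative bacteria that TLR4 detects, or PBS, which the treatment description calls untreated. Each of the 4 groups (Fes-/- LPS, Fes-/- PBS, wild-type LPS and wild-type PBS) held 3 libraries, the labels give 3 mice per genotype, and they state no age, sex or strain. The Fes-/- allele was present in the whole animal as far as the labels say, and the sources used here do not say how it was made.

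A T cell that recognises antigen needs further signals from the presenting cell. CD80 and CD86 engage CD28 to activate the T cell and CTLA-4 to restrain it, PD-L1 (Cd274) and PD-L2 (Pdcd1lg2) engage the inhibitory receptor PD-1, ICOS ligand (Icosl) engages ICOS, and CD40 receives CD40 ligand from helper T cells and in turn licenses the presenting cell. SLAMF7 and CD48 belong to the SLAM family, in which CD48 binds 2B4 and CD2 and SLAMF7 binds itself, and galectin-9 (Lgals9) is a sugar-binding protein described as a ligand of TIM-3.

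The members include 2 pairs of chromosomal neighbours whose levels differ widely, so the upstream sequence of these 4 genes is shown. In GENCODE M21 on GRCm38, Cd274 (chr19:29367455-29388095) and Pdcd1lg2 (chr19:29410919-29471161) both lie on the plus strand, 22.8 kb apart with 0 annotated genes between them. Slamf7 (chr1:171632403-171653035, minus strand) and Cd48 (chr1:171682009-171705258, plus strand) lie 29.0 kb apart with 0 protein-coding genes between them. Cd86 (chr16:36603869-36666081, minus strand) and Cd80 (chr16:38455561-38496335, plus strand) share a chromosome but lie 1789 kb apart. The other members are Cd40 (chr2:165055627-165072948, plus strand), Icosl (chr10:78069302-78083913, plus strand), Cd276 (chr9:58524298-58555437, minus strand) and Lgals9 (chr11:78962974-78984946, minus strand). The sequences are the 250 bases before the RefSeq start on GRCm38.p6, 5′ to 3′ along the gene's strand, and capitals mark a match to a searched motif.
Cd274, chr19:29367188-29367437, plus strand: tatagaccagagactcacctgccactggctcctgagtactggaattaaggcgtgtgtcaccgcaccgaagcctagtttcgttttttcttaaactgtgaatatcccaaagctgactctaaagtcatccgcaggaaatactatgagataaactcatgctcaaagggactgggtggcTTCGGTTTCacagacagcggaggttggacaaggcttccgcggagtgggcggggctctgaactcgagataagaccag
Pdcd1lg2, chr19:29410669-29410918, plus strand: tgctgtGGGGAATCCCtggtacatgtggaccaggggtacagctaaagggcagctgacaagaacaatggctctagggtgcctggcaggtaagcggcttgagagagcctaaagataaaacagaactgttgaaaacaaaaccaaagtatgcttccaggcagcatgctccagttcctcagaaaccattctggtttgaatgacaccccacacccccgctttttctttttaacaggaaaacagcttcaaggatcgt
Slamf7, chr1:171649000-171649249, minus strand: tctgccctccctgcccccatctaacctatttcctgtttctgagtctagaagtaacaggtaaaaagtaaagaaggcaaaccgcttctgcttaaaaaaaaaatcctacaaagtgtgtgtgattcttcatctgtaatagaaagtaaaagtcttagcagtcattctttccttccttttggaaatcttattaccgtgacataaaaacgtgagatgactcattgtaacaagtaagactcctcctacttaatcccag
Cd48, chr1:171681742-171681991, plus strand: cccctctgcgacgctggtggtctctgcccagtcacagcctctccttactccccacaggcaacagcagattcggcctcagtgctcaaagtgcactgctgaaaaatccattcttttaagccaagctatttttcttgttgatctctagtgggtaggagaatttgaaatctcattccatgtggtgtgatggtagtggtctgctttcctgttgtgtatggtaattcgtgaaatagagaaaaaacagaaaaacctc
The capitals in Cd274 are a match to the interferon regulatory factor core (GAAANNGAA) on the opposite strand, 76 to 68 bases before the start. The capitals in Pdcd1lg2 are a match to the NF-kB consensus, 244 to 235 bases before the start, and either strand of it matches that consensus. The Slamf7 and Cd48 windows held no match to these motifs or to the interferon-gamma activated sequence (GAS, TTCNNNGAA). The RefSeq start of Slamf7 lies inside the longer GENCODE gene, so its window is not the one before the GENCODE start. RefSeq windows were found for 8 of the 10 members. Searched on both strands, the NF-kB consensus matched 2 of these 8 (Pdcd1lg2 and Icosl) and 7.25% of 32851 promoters. The interferon regulatory factor core matched 2 of 8 (Cd274 and Lgals9) and 7.13% of promoters, and GAS matched 0 of 8 and 7.02% of promoters. A match is a description of letters in the window and not of binding.

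The 12 libraries held 61016254 to 101027166 counts. Fes itself had 16.0 to 16.8 TPM (transcript level scaled by gene length and library sum) in Fes-/- LPS libraries against 72.2 to 82.0 TPM in wild-type LPS libraries, and 63.8 to 66.7 TPM in Fes-/- PBS libraries against 154 to 174 TPM in wild-type PBS libraries. Its log2 difference between Fes-/- and wild type was -2.26 ± 0.07 under LPS (SE, edgeR quasi-likelihood test, adjusted p = 3.23e-10) and -1.38 ± 0.07 under PBS (adjusted p = 6.16e-08). All 10 macrophage markers examined exceeded a mean of 1 TPM in every group, among them Csf1r, Adgre1 and Lyz2. Their summed level ranged over 17870 to 21970 TPM in Fes-/- LPS, 29573 to 38164 TPM in Fes-/- PBS, 19100 to 23153 TPM in wild-type LPS and 33069 to 40074 TPM in wild-type PBS libraries. Of other cell types, the T-cell genes Cd3e, Cd3d and Cd3g reached at most 0.110 TPM in any library. The whole T-cell list of 7 genes, which includes Cd4 and Lck, summed to 12.2 to 14.2 TPM in Fes-/- LPS against 2.05 to 4.58 TPM in Fes-/- PBS libraries, and to 12.1 to 15.5 TPM in wild-type LPS against 3.73 to 8.40 TPM in wild-type PBS libraries. Of its 3 tested genes Lck rose under LPS, by 5.56 in Fes-/- and 5.77 in wild type on the log2 scale. Cd4 had -1.03 in each genotype (edgeR, adjusted p = 0.174 and 0.149), and Cd5 had -0.47 and 0.57 (adjusted p = 0.448 and 0.42). The NK-cell list summed to 7.44 to 10.7 TPM in Fes-/- LPS against 0.169 to 0.383 TPM in Fes-/- PBS libraries, and to 7.49 to 8.72 TPM in wild-type LPS against 0.149 to 0.354 TPM in wild-type PBS libraries. Klrk1 was the 1 of its 5 genes with a mean over 1 TPM under LPS. It rose by 7.02 in Fes-/- and 8.29 in wild type on the log2 scale. The neutrophil list summed to 14.2 to 20.5 TPM in Fes-/- LPS against 17.4 to 28.1 TPM in wild-type LPS libraries, and to 23.2 to 30.5 TPM in Fes-/- PBS against 33.0 to 45.1 TPM in wild-type PBS libraries. The genotypes therefore overlapped in it under LPS and did not overlap under PBS. In each group 3 of the 10 neutrophil genes had a mean over 1 TPM. The highest values in any library were 23.5 TPM for S100a9, 15.1 TPM for S100a8 and 5.28 TPM for Ngp. Ncr1 of the NK-cell list and Ly6g of the neutrophil list reached at most 0 and 0.0606 TPM in any library. The B-cell genes Cd79a, Cd79b, Ms4a1 and Pax5 summed to 2.54 to 3.31 TPM in Fes-/- LPS against 20.4 to 21.7 TPM in Fes-/- PBS libraries, and to 3.94 to 4.59 TPM in wild-type LPS against 19.3 to 25.7 TPM in wild-type PBS libraries. Cd79b was the 1 of these 4 with a mean over 1 TPM in any group. The dendritic-cell list summed to 46.3 to 48.6 TPM in Fes-/- LPS against 1.51 to 2.20 TPM in Fes-/- PBS libraries, and to 30.8 to 56.0 TPM in wild-type LPS against 1.24 to 1.88 TPM in wild-type PBS libraries. The 2 of its 9 genes over 1 TPM under LPS were Fscn1 and Ccr7, while the defining genes Flt3 and Zbtb46 stayed at or under 0.134 and 0.214 TPM. The part of such cells in the LPS and genotype differences was not tested.

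LPS raised 6 of the 10 genes in both genotypes under every scaling, test, filter and left-out library that was tried. These were Cd40, Cd274, Slamf7, Cd86, Lgals9 and Icosl, and their changes spanned 2.00 to 7.55 on the log2 scale in Fes-/- macrophages and 1.89 to 7.76 in wild type. A gene is called here where its p, adjusted over all tested genes, is under 0.05. The other 4 genes, Pdcd1lg2, Cd80, Cd276 and Cd48, were higher under LPS in the test scaled by trimmed means (TMM), but lost the call in at least 1 genotype or changed sign with another scaling. No member was called between genotypes in the filtered test, and 1 was under each treatment when the filter on low counts was dropped. Since these are bulk libraries, fewer cells of a type and less RNA per cell cannot be told apart.

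The order of the genes by level also changed with LPS. Under PBS the sum over the 10 genes was 1017 ± 103 TPM in Fes-/- and 1003 ± 88.8 TPM in wild-type libraries (SD, n = 3 each), most of it from Cd48 and Lgals9. Cd48 held 44.9 ± 5.47% of the sum in Fes-/- and 45.8 ± 1.54% in wild type, and Lgals9 held 38.8 ± 5.81% in Fes-/- and 36.9 ± 3.00% in wild type. Under LPS the sum was 4880 ± 54.1 TPM in Fes-/- and 4876 ± 56.1 TPM in wild-type libraries. Cd40 then held 27.0 ± 1.10% in Fes-/- and 25.6 ± 0.649% in wild type, and Cd274 held 25.4 ± 2.34% in Fes-/- and 28.2 ± 1.82% in wild type. Slamf7 and Lgals9 held most of the remainder, and Cd48 held 6.70 ± 0.434% in Fes-/- LPS and 6.52 ± 0.495% in wild-type LPS libraries. Under LPS the descending order was Cd40, Cd274, Slamf7, Lgals9, Cd48, Cd86, Icosl, Cd80, Cd276 and Pdcd1lg2 in Fes-/- macrophages. Wild type had the same order except that Cd274 stood above Cd40. Neighbours whose TPM ranges overlapped were Cd40 and Cd274 in Fes-/- LPS libraries, and no pair in wild-type LPS libraries. Under PBS both genotypes had the order Cd48, Lgals9, Slamf7, Icosl, Cd274, Cd80, Cd86, Cd40, Cd276 and Pdcd1lg2, and there the ranges of Cd48 and Lgals9, and of Cd86 and Cd40, overlapped in both genotypes. Slamf7 and Icosl, and Cd274 and Cd80, also overlapped in Fes-/- PBS libraries, and Icosl and Cd274, and Cd80 and Cd86, in wild-type PBS libraries.

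**Figure D1:**
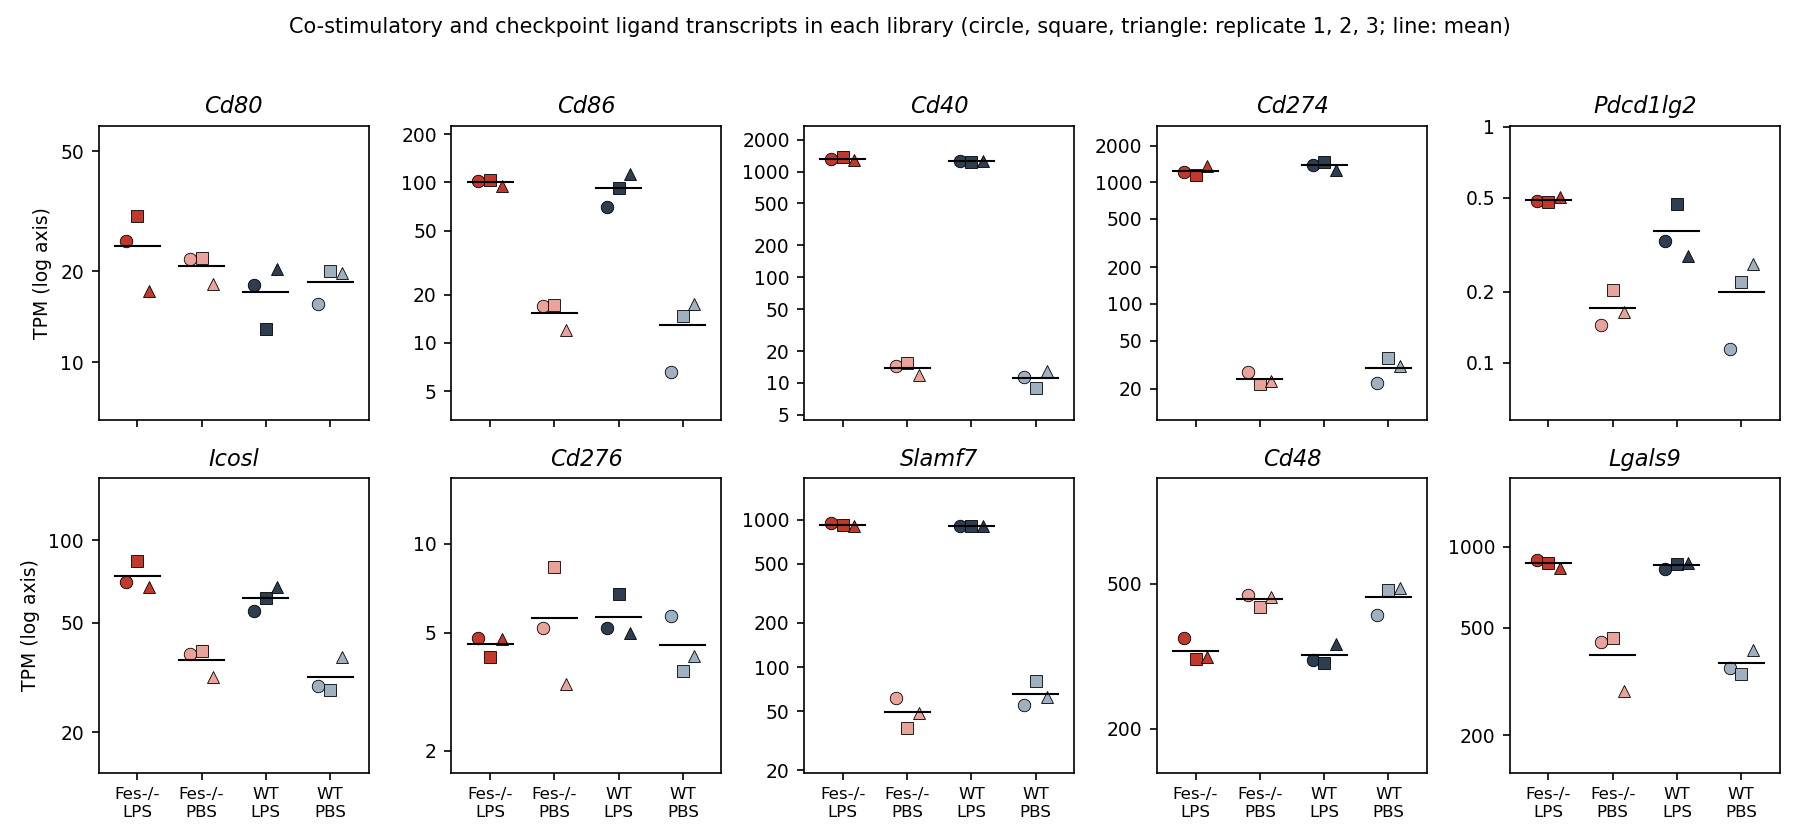
Level of each of the 10 genes in TPM (log axis, each panel with its own range) in the 12 libraries, with the 3 libraries of each group marked by replicate and the mean as a line. Cd40, Cd274 and Slamf7 lie above 900 TPM in all 6 LPS libraries and under 90 TPM in all 6 PBS libraries, while Cd80 and Cd276 overlap between LPS and PBS.

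The scaling of LPS against PBS libraries decides some directions. The 100 genes with the most counts held 28.0 to 28.6% of counts in LPS libraries and 19.9 to 21.8% in PBS libraries, and TMM factors were 0.707 to 0.737 in LPS and 1.35 to 1.40 in PBS libraries. With library totals alone the median log2 change of all tested genes was -1.02 in Fes-/- and -0.98 in wild type, against -0.08 and -0.07 with TMM factors. The share of calls that were higher under LPS was 18.5% in Fes-/- and 19.2% in wild type with totals alone, against 46.9% and 47.1% with TMM factors. On the deposited TPM values, log2(TPM + 1) in limma, 7 members were called higher and 1 lower in each genotype. Of all 15801 tested genes, that test called 2448 higher and 11198 lower in Fes-/-, and 2513 higher and 10934 lower in wild type. RNA amount per cell was not measured, so which scaling is closer to the amount per cell was not tested.

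With TMM factors, edgeR called 10 of 10 members higher under LPS and 0 lower in each genotype. For comparison, 34.3% of all tested genes rose and 38.9% fell in Fes-/- macrophages, and 34.6% rose and 38.8% fell in wild type. The median log2 change of the 10 members was 2.28 in Fes-/- and 2.02 in wild type. With totals alone 7 members were called higher and 1 lower in Fes-/-, and 6 higher and 1 lower in wild type, with medians of 1.35 and 1.10. Of all 15801 tested genes, 2510 were then called higher and 11064 lower in Fes-/-, and 2579 higher and 10828 lower in wild type. In TPM the LPS and PBS libraries did not overlap for 8 of 10 members in each genotype. The same held for 87.2% of all tested genes in Fes-/- and 85.3% in wild type, so such separation in TPM was not particular to the members. One of the 8, Cd48, was lower under LPS in TPM. In scaled counts the LPS and PBS libraries did not overlap for 10 of 10 members in each genotype, against 77.2% of all tested genes in Fes-/- and 75.3% in wild type.

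**Figure D2:**
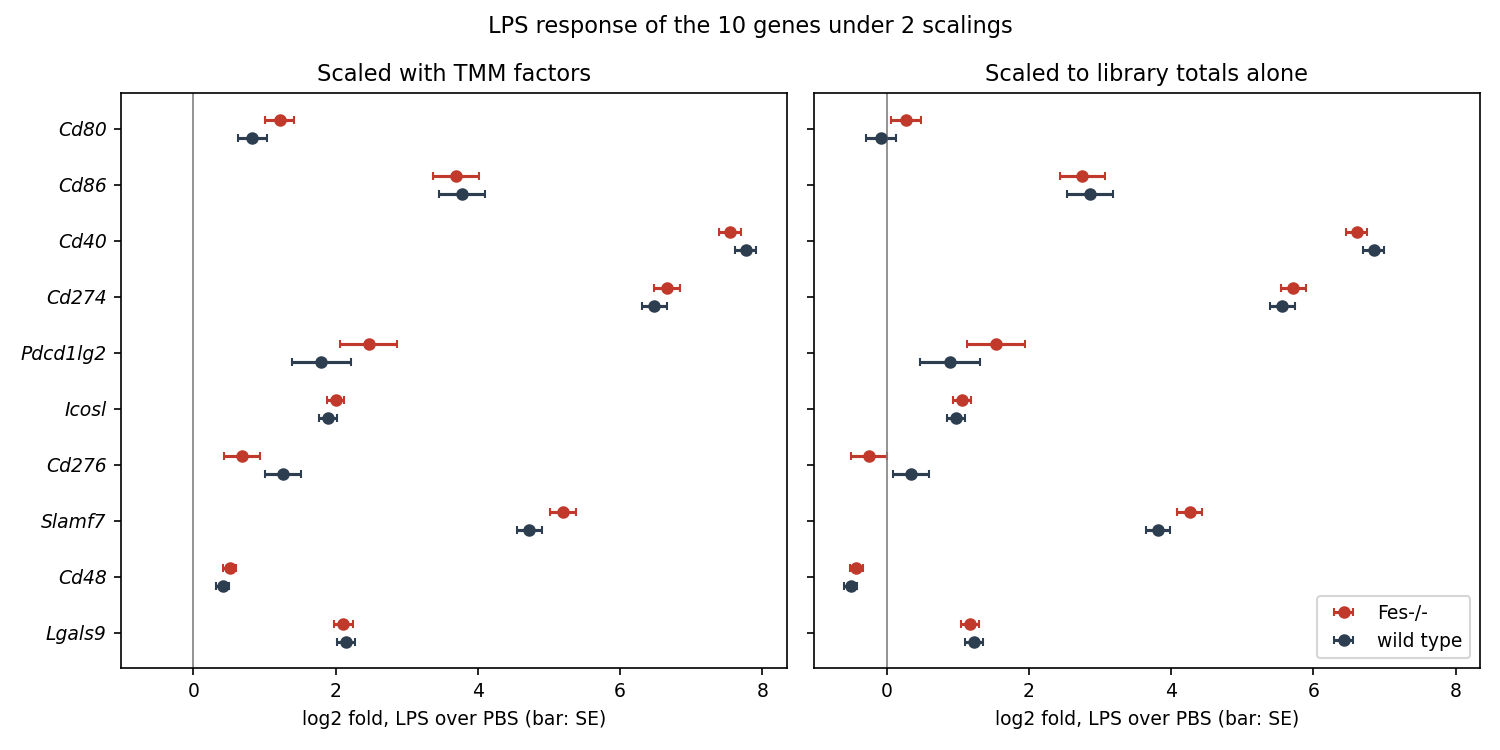
Fitted log2 change, LPS over PBS, of each gene in Fes-/- and wild-type macrophages with TMM factors (left) and with library totals alone (right), with bars of 1 SE. Every point lies further left with totals alone, and Cd48, the lowest gene on the left, is then below 0 in both genotypes.

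The CD28 ligands differed in their response. Cd86 had 103, 104 and 95.4 TPM in Fes-/- LPS libraries against 17.1, 17.2 and 12 TPM in Fes-/- PBS libraries. In wild type it had 70.2, 92.5 and 113 TPM under LPS against 6.60, 14.8 and 17.4 TPM under PBS. Every LPS library stood above every PBS library, and wild-type replicate 1 was the lowest library of its group under both treatments. The log2 change of Cd86 was 3.69 ± 0.32 in Fes-/- (adjusted p = 1.52e-06) and 3.78 ± 0.33 in wild type (adjusted p = 1.3e-06), which is 12.9-fold and 13.7-fold. Cd80 had 25.2, 30.4 and 17.2 TPM in Fes-/- LPS against 22.0, 22.2 and 18.1 TPM in Fes-/- PBS libraries. Wild-type macrophages had 18.0, 12.8 and 20.3 TPM under LPS against 15.6, 20.1 and 19.7 TPM under PBS. In TPM the LPS and PBS libraries of Cd80 overlapped in both genotypes. Its log2 change was 1.21 ± 0.20 in Fes-/- (adjusted p = 0.000157) and 0.83 ± 0.20 in wild type (adjusted p = 0.00285) with TMM factors, but 0.27 ± 0.21 (adjusted p = 0.228) and -0.08 ± 0.21 (adjusted p = 0.717) with totals alone.

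Cd40, the receptor for CD40 ligand, had the highest fold of the 10 genes. It had 1319, 1362 and 1273 TPM in Fes-/- LPS libraries against 14.5, 15.3 and 11.9 TPM in Fes-/- PBS libraries. Wild-type macrophages had 1258, 1228 and 1259 TPM under LPS against 11.4, 8.88 and 12.8 TPM under PBS. The groups were far apart and the LPS libraries of each genotype were close together. The log2 change was 7.55 ± 0.15 in Fes-/- (187-fold, adjusted p = 1.61e-14) and 7.76 ± 0.15 in wild type (217-fold, adjusted p = 1.41e-14). Its fold ranked 203 from the highest of 15801 tested genes in Fes-/- and 192 in wild type. By mean TPM it ranked 98 of 23535 detected genes in Fes-/- LPS and 105 of 22703 in wild-type LPS, against 7787 of 24360 in Fes-/- PBS and 8328 of 24247 in wild-type PBS.

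The PD-1 ligands, although adjacent on chromosome 19, stood more than 100-fold apart. Cd274 had 1206, 1142 and 1370 TPM in Fes-/- LPS libraries against 27.4, 22.2 and 23.1 TPM in Fes-/- PBS libraries. Wild-type libraries had 1397, 1462 and 1264 TPM under LPS against 22.2, 35.8 and 30.8 TPM under PBS. No LPS library overlapped a PBS library. The log2 change of Cd274 was 6.65 ± 0.18 in Fes-/- (101-fold, adjusted p = 2.25e-13) and 6.48 ± 0.18 in wild type (89.3-fold, adjusted p = 2.68e-13). Pdcd1lg2 was near the limit of detection, with 29, 22 and 19 counts in Fes-/- LPS against 5, 8 and 6 counts in Fes-/- PBS libraries. It had 12, 18 and 11 counts in wild-type LPS against 5, 8 and 10 counts in wild-type PBS libraries. Its mean level was 0.492 ± 0.0133 TPM in Fes-/- LPS, 0.171 ± 0.0299 TPM in Fes-/- PBS, 0.361 ± 0.0979 TPM in wild-type LPS and 0.199 ± 0.0764 TPM in wild-type PBS libraries. With TMM factors its log2 change was 2.46 ± 0.40 in Fes-/- (adjusted p = 6.11e-05) and 1.80 ± 0.42 in wild type (adjusted p = 0.00119), but with totals alone 1.54 ± 0.41 (adjusted p = 0.00273) and 0.89 ± 0.42 (adjusted p = 0.0585). An antisense gene, A930007I19Rik, overlaps Pdcd1lg2 and had 49 to 82 counts per library. The sources used here do not say whether reads were counted by strand, so reads of this pair cannot be told apart and the values of Pdcd1lg2 are uncertain.

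Of the other B7 genes, Icosl had 70.2, 84.0 and 67.3 TPM in Fes-/- LPS libraries against 38.3, 39.4 and 31.7 TPM in Fes-/- PBS libraries. In wild type it had 55.2, 61.6 and 67.4 TPM under LPS against 29.5, 28.4 and 37.6 TPM under PBS. LPS libraries stood above PBS libraries without overlap in both genotypes. The log2 change of Icosl was 2.00 ± 0.12 in Fes-/- (adjusted p = 1.35e-09) and 1.89 ± 0.12 in wild type (adjusted p = 2.5e-09), and it stayed called with totals alone at 1.06 and 0.97. Cd276, which encodes B7-H3, a molecule with both stimulatory and inhibitory effects described, was low at 4.13 to 4.81 TPM in Fes-/- LPS against 3.37 to 8.32 TPM in Fes-/- PBS libraries. It had 5.00 to 6.76 TPM in wild-type LPS against 3.72 to 5.70 TPM in wild-type PBS libraries. The ranges overlapped in both genotypes. The log2 change of Cd276 was 0.69 ± 0.26 in Fes-/- (adjusted p = 0.0267) and 1.26 ± 0.26 in wild type (adjusted p = 0.000597) with TMM factors, but -0.25 ± 0.25 (adjusted p = 0.36) and 0.34 ± 0.25 (adjusted p = 0.216) with totals alone. The call in Fes-/- was lost without Fes-/- PBS replicate 1 or 3, or Fes-/- LPS replicate 1 or 3, with adjusted p of 0.0622 to 0.0789.

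The SLAM family neighbours on chromosome 1 also responded unequally. Slamf7, a receptor of macrophages and lymphocytes, had 954, 916 and 907 TPM in Fes-/- LPS libraries against 62.0, 38.4 and 48.7 TPM in Fes-/- PBS libraries. Wild-type libraries of Slamf7 had 909, 910 and 903 TPM under LPS against 54.9, 80.4 and 62.7 TPM under PBS. LPS and PBS libraries were separate, and the wild-type LPS libraries had a coefficient of variation of 0.433%. The log2 change of Slamf7 was 5.20 ± 0.18 in Fes-/- (36.7-fold, adjusted p = 4.72e-12) and 4.72 ± 0.18 in wild type (26.4-fold, adjusted p = 9.85e-12). Cd48, the ligand of 2B4, had 355, 311 and 315 TPM in Fes-/- LPS against 466, 432 and 460 TPM in Fes-/- PBS libraries. It had 308, 302 and 342 TPM in wild-type LPS against 409, 481 and 487 TPM in wild-type PBS libraries. In TPM each LPS library was below each PBS library, whereas the TMM-scaled log2 change was 0.51 ± 0.09 in Fes-/- (adjusted p = 0.000104) and 0.41 ± 0.09 in wild type (adjusted p = 0.000673). With totals alone it was -0.43 ± 0.09 in Fes-/- (adjusted p = 0.00043) and -0.50 ± 0.09 in wild type (adjusted p = 9.97e-05), called with the opposite sign. Since the median of all genes was -1.02 and -0.98 under that scaling, Cd48 stood 0.59 above it in Fes-/- and 0.48 in wild type.

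Lgals9 had 895, 870 and 833 TPM in Fes-/- LPS libraries against 442, 460 and 291 TPM in Fes-/- PBS libraries. Wild-type libraries of Lgals9 had 825, 865 and 866 TPM under LPS against 356, 338 and 415 TPM under PBS. The LPS libraries were higher without overlap, and Fes-/- PBS replicate 3 was the lowest of the 12. The log2 change of Lgals9 was 2.11 ± 0.13 in Fes-/- (adjusted p = 1.26e-09) and 2.15 ± 0.13 in wild type (adjusted p = 1.03e-09), and it was still called with totals alone at 1.17 and 1.23.

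The series title concerns T-cell priming by Fes-deficient macrophages, and the genotype comparison asks whether these transcripts differ with Fes. Under LPS edgeR called 0 of 10 members between Fes-/- and wild type, where 0.108% of all tested genes were called. Under PBS it called 0 of 10, where 0.0823% of all tested genes were called. DESeq2 also called 0 members in each. At an unadjusted p under 0.05 there was 1 of 10 members under LPS, against 6.52% of all tested genes (1030). Under PBS there were 3 of 10, against 3.83% of all tested genes (605). The member under LPS was Cd80, with a log2 difference of 0.50 ± 0.20 (edgeR, adjusted p = 0.731). Its Fes-/- LPS libraries had 25.2, 30.4 and 17.2 TPM against 18.0, 12.8 and 20.3 TPM in wild-type LPS libraries, and the groups overlapped. Under PBS, Slamf7 had a log2 difference of -0.46 ± 0.15, Cd274 had -0.34 ± 0.14 and Cd40 had 0.28 ± 0.12, each with an adjusted p of 0.975. The libraries of the 2 genotypes overlapped for all 3. With no filter on low counts, which left 28358 genes in the fit, Cd80 was called under LPS (0.54, adjusted p = 0.000357) and Slamf7 under PBS (-0.47, adjusted p = 0.00195), where 1.26% and 1.11% of all genes were called.

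The fit bounded most differences. The 95% interval lay within 2-fold for 9 of 10 members under LPS and 9 of 10 under PBS, against 74.1% and 77.7% of all tested genes, and Pdcd1lg2 was the exception in both. The narrowest was that of Cd48, at -0.16 to 0.22 under LPS and -0.26 to 0.12 under PBS on the log2 scale. For Cd274 the interval was -0.47 to 0.14 under LPS and -0.65 to -0.03 under PBS. For Cd86 it was -0.53 to 0.76 under LPS and -0.47 to 0.88 under PBS. In scaled counts the genotypes did not overlap for 2 members under LPS, against 11.4% of all tested genes, and for 0 under PBS, against 6.82%. The 2 were Pdcd1lg2, higher in each Fes-/- library at 0.43 ± 0.37 (adjusted p = 0.892), and Cd276, lower in each at -0.32 ± 0.25 (adjusted p = 0.89). In TPM the genotypes did not overlap for 3 members under LPS, against 11.8% of all tested genes, and for 0 under PBS, against 6.73%. The 3 were the same 2 and Cd40, at 1273 to 1362 TPM in Fes-/- and 1228 to 1259 TPM in wild-type LPS libraries.

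**Figure D3:**
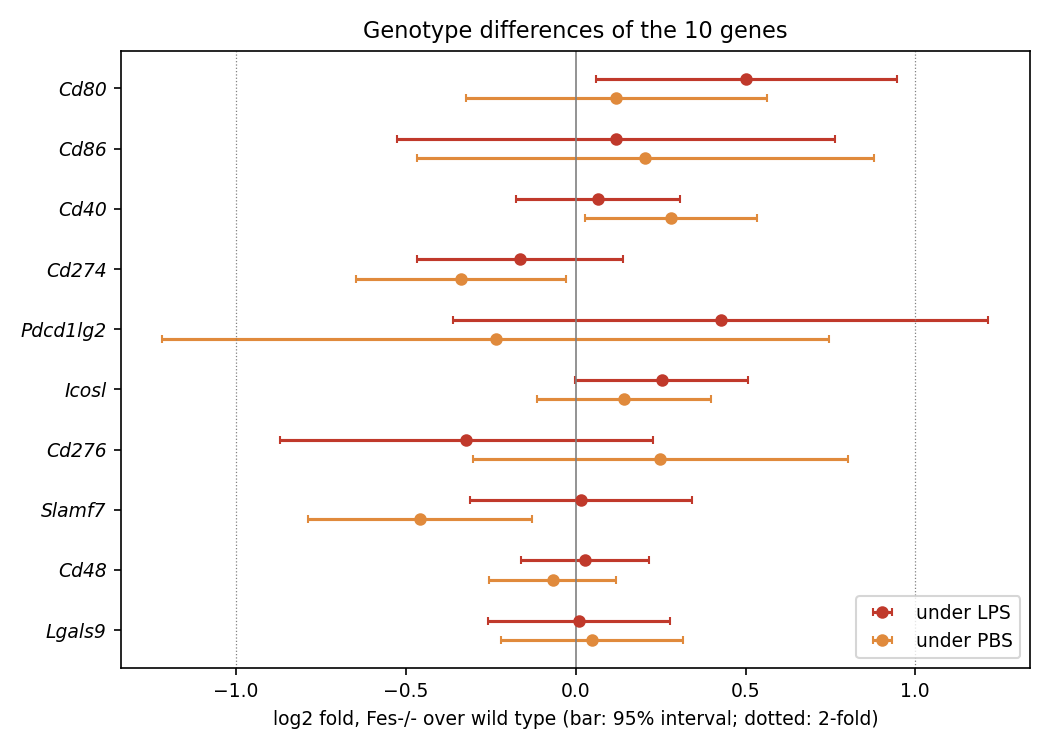
Fitted log2 difference, Fes-/- over wild type, of each gene under LPS and under PBS, with 95% intervals that are not adjusted for the number of genes. Only Pdcd1lg2 reaches beyond the dotted 2-fold lines, and the points lie between -0.46 and 0.50.

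Whether the LPS response itself differed by genotype was tested as an interaction. edgeR called 0 of 10 members, where 0.019% of all tested genes were called, and DESeq2 called 0 members. Slamf7 had a log2 interaction of 0.47 ± 0.22 (adjusted p = 1), the 1 member under an unadjusted 0.05, against 2.94% of all tested genes (464). Its PBS level was 49.7 ± 11.8 TPM in Fes-/- and 66.0 ± 13.1 TPM in wild type, whereas its LPS level was 926 ± 24.8 TPM in Fes-/- and 907 ± 3.92 TPM in wild type (SD, n = 3 each). The interaction of Cd40 was -0.22 ± 0.16 and that of Cd274 was 0.17 ± 0.20, both with an adjusted p of 1. The interval of the interaction lay within 2-fold for 6 of 10 members, against 66.5% of all tested genes.

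Ratios of ligands within a library do not depend on the library's scaling. They were compared in 12 ways by an exact two-sided permutation test of 3 against 3 libraries, for which 0.1 is the smallest p and 0.15 the smallest adjusted p reached, so none could pass 0.05. Cd86 over Cd80 averaged 4.26 in Fes-/- LPS against 0.737 in Fes-/- PBS libraries, and 5.39 in wild-type LPS against 0.651 in wild-type PBS libraries (means of log2 ratios, n = 3 each, exact permutation p = 0.1, no overlap). Cd80 therefore exceeded Cd86 in all 6 PBS libraries and Cd86 exceeded Cd80 in all 6 LPS libraries. Cd274 over Pdcd1lg2 averaged 2514 in Fes-/- LPS against 142 in Fes-/- PBS libraries, and 3889 in wild-type LPS against 155 in wild-type PBS libraries, with the counting limits of Pdcd1lg2 given above. The summed CD28 ligands over the summed PD-1 ligands averaged 0.101 in Fes-/- LPS against 1.48 in Fes-/- PBS libraries, and 0.0783 in wild-type LPS against 1.05 in wild-type PBS libraries, again without overlap (exact permutation p = 0.1). Between genotypes under PBS the CD28 over PD-1 ligand ratio was 1.29 to 1.76 in Fes-/- and 0.967 to 1.19 in wild-type libraries, without overlap (exact permutation p = 0.1, adjusted p = 0.15). Under LPS it was 0.0822 to 0.118 in Fes-/- and 0.0631 to 0.105 in wild-type libraries, which overlapped (exact permutation p = 0.2, adjusted p = 0.267). Cd274 over Pdcd1lg2 under LPS was 2375 to 2705 in Fes-/- and 3103 to 4466 in wild-type libraries, without overlap (exact permutation p = 0.1, adjusted p = 0.15). Under PBS it was 109 to 189 in Fes-/- and 117 to 194 in wild-type libraries, which overlapped (exact permutation p = 0.7, adjusted p = 0.764). Cd86 over Cd80 overlapped between genotypes under LPS, at 3.42 to 5.54 in Fes-/- and 3.91 to 7.21 in wild type (exact permutation p = 0.4, adjusted p = 0.48). It also overlapped under PBS, at 0.662 to 0.779 in Fes-/- and 0.425 to 0.884 in wild type (exact permutation p = 0.8, adjusted p = 0.8). Protein on the cell surface was not measured.

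**Figure D4:**
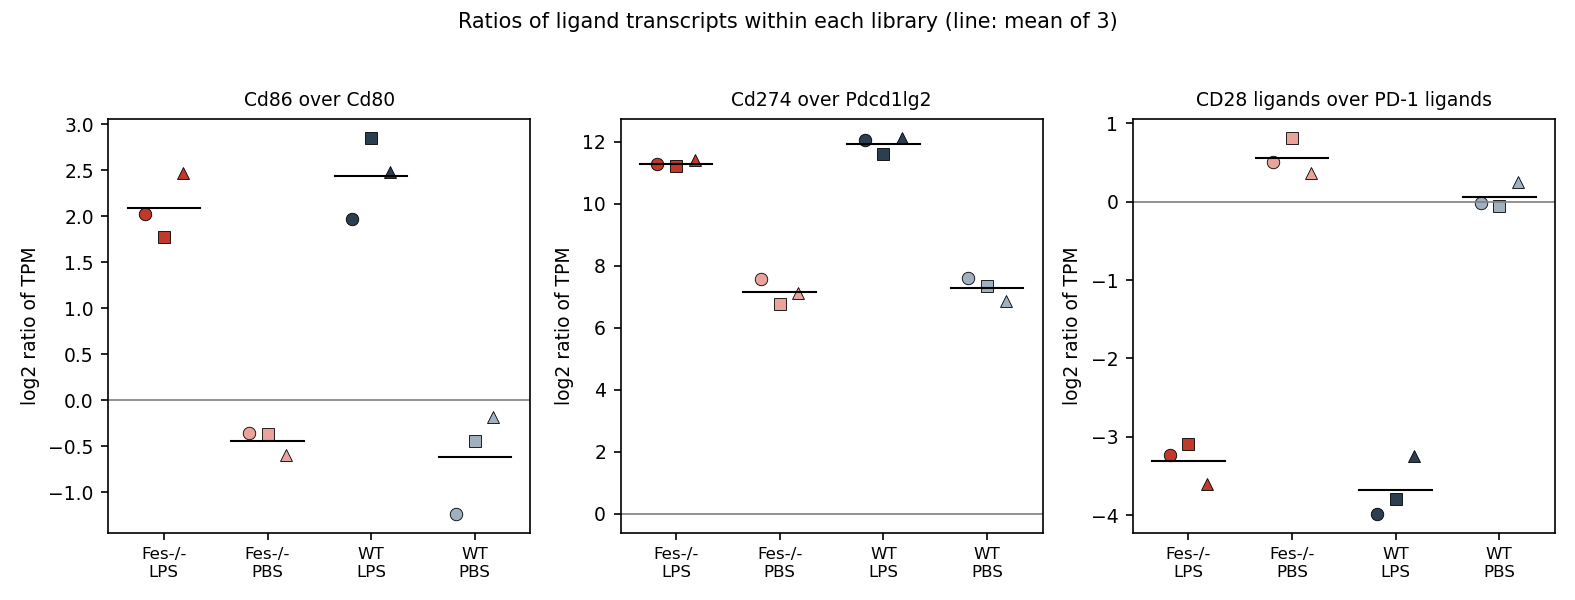
log2 ratio of TPM within each library for Cd86 over Cd80, Cd274 over Pdcd1lg2, and Cd80 plus Cd86 over Cd274 plus Pdcd1lg2, with the mean of 3 libraries as a line. Cd86 over Cd80 is above 0 in the 6 LPS libraries and below 0 in the 6 PBS libraries, and CD28 over PD-1 ligands is below -3 in the 6 LPS libraries.

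The genes most like each member were sought by the root-mean-square (RMS) difference between centred log2 CPM profiles over the 12 libraries, among 9167 named protein-coding genes. Cd48 had the smallest RMS difference, 0.0741 log2 units to Grn, and its second neighbour was Micu2 (0.077). Lgals9 was nearest Rtp4 (0.0768) and Tapbp (0.0783), which encodes tapasin of MHC class I peptide loading. Icosl was nearest Gna15 (0.119) and Nfkbid (0.125). Cd40 was nearest Bcl2a1a (0.119) and Bcl2a1d (0.165), near-identical survival gene copies whose reads may be split between them. Cd274 was nearest Pfkfb3 (0.16), a regulator of glycolysis, and Batf2 (0.263), and Slamf7 was nearest Fgl2 (0.132) and Misp (0.144). Cd86 was nearest Fcgr2b (0.264), the inhibitory Fc receptor, and Il18 (0.278). Cd80 was nearest Uaca (0.182) and Phtf2 (0.19), and Cd276 was nearest Pogk (0.163) and Pxk (0.198). Those of Pdcd1lg2 are not named, since its counts are too low for a profile. Among the members, Icosl and Lgals9 were closest at 0.179, and all such profiles share the step between LPS and PBS libraries.

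Other genes of the same pathways were counted in 8 fixed lists with 74 distinct tested genes, each gene tested with all others by edgeR with TMM factors. None of the 74 was called between genotypes or in the interaction by edgeR or by DESeq2. At an unadjusted p under 0.05 there were 7 of the 74 (9.46%) between genotypes under LPS, against 6.52% of all tested genes. Under PBS there were 8 (10.8%), against 3.83%, and in the interaction 7 (9.46%), against 2.94%. These lists were not chosen independently of earlier results, and the shares were not tested against each other. Without a filter on low counts 5, 4 and 2 were called in these comparisons, where 1.26%, 1.11% and 0.317% of all genes were called. Among them were Tnfsf15 under LPS and Tnfsf9 under PBS. Under LPS against PBS 64 of the 74 were called in Fes-/- and 65 in wild type, against 73.2% and 73.4% of all tested genes. The genes named next have the smallest p of their list in Fes-/-, apart from Vsir, Tnfsf14, Tnfsf13b, Map3k14 and Ifngr1, which were chosen after their values were seen.

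Of 12 tested genes among the other B7, butyrophilin and nectin ligands, 6 were higher and 3 lower under LPS in Fes-/-, and 6 higher and 4 lower in wild type. Cd200, whose product restrains myeloid cells through CD200R, had 21.4 ± 0.794 TPM in Fes-/- LPS against 0.152 ± 0.0345 TPM in Fes-/- PBS libraries (log2 8.11 ± 0.18). In wild type it had 24.7 ± 3.55 TPM under LPS against 0.205 ± 0.036 TPM under PBS (log2 7.84 ± 0.17). Pvr, a ligand of DNAM-1 and TIGIT, rose by 3.13 in Fes-/- and 2.99 in wild type, and Cd47, a ligand of SIRP-alpha, by 2.17 and 2.14. Nectin2 rose by 2.37 in Fes-/- and 2.27 in wild type. Vsir, which encodes the checkpoint molecule VISTA, moved the other way, with 45.8 ± 0.489 TPM in Fes-/- LPS against 268 ± 29.9 TPM in Fes-/- PBS libraries and 47.4 ± 2.34 TPM in wild-type LPS against 317 ± 41.0 TPM in wild-type PBS libraries. Its log2 change was -1.57 ± 0.11 in Fes-/- and -1.80 ± 0.11 in wild type. The directions of these 5 genes held with library totals alone, under which the list had 6 higher and 5 lower in Fes-/- and 6 higher and 6 lower in wild type.

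Of 7 tested co-stimulatory ligands of the TNF superfamily, 5 were higher and 1 lower in each genotype, and with totals alone 5 were higher and 2 lower in each. Tnfsf4, the OX40 ligand, rose by 7.53 ± 0.24 in Fes-/- and 7.91 ± 0.25 in wild type, to 62.8 ± 5.73 TPM in Fes-/- LPS and 63.4 ± 9.40 TPM in wild-type LPS libraries. Tnfsf9, the 4-1BB ligand, reached 237 ± 58.0 TPM in Fes-/- LPS and 299 ± 9.84 TPM in wild-type LPS libraries (log2 change 4.92 ± 0.33 in Fes-/- and 6.09 ± 0.35 in wild type). Tnfsf15 rose by 8.17 in Fes-/- and 7.94 in wild type, and Tnfsf18, the GITR ligand, by 4.52 and 4.41. The gene that was lower was Tnfsf14 (LIGHT) in Fes-/-, at -0.81 ± 0.21, and Tnfsf13b (BAFF) in wild type, at -0.55 ± 0.19.

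Of 6 adhesion genes, 4 were higher and 0 lower in each genotype, and with totals alone 4 were higher and 2 lower in each. Icam1, a ligand of LFA-1, rose by 5.21 ± 0.14 in Fes-/- and 5.17 ± 0.14 in wild type, Vcam1 by 8.71 and 8.68, Alcam, a ligand of CD6, by 1.5 and 1.59, and F11r by 3.44 and 3.71. Of 8 other SLAM family genes and adaptors, 5 were higher and 2 lower in each genotype, against 3 higher and 3 lower with totals alone. Slamf8 rose by 3.14 in Fes-/- and 3.15 in wild type, and Slamf1 by 6.44 and 6.65. Sh2d1b1, which encodes the SLAM adaptor EAT-2, fell to 0.341 ± 0.0784 TPM in Fes-/- LPS against 17.2 ± 3.06 TPM in Fes-/- PBS libraries, and to 0.174 ± 0.123 TPM in wild-type LPS against 14.4 ± 4.67 TPM in wild-type PBS libraries. Its log2 change was -4.65 ± 0.31 in Fes-/- and -5.40 ± 0.35 in wild type, and that of Cd84 was -1.06 ± 0.08 and -1.07 ± 0.08.

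Of 13 genes of CD40 signalling, 11 were higher and 1 lower in Fes-/-, and 12 higher and 1 lower in wild type, against 9 higher and 3 lower in each with totals alone. Tnfaip3, the NF-kB inhibitor A20, rose by 8.08 ± 0.15 in Fes-/- and 8.29 ± 0.15 in wild type. Nfkb1 rose by 3.77 and 3.74, Nfkb2 by 4.12 and 4.25, and Traf2, an adaptor of the CD40 tail, by 2.40 and 2.40. The 1 gene that fell was Map3k14, which encodes the NF-kB-inducing kinase (NIK) of the non-canonical pathway, at -3.02 ± 0.14 in Fes-/- and -3.17 ± 0.15 in wild type. It had 1.10 ± 0.198 TPM in Fes-/- LPS against 17.7 ± 1.78 TPM in Fes-/- PBS libraries, and 0.991 ± 0.128 TPM in wild-type LPS against 17.1 ± 1.69 TPM in wild-type PBS libraries.

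Of 15 genes of interferon and STAT signalling, which is known to induce PD-L1, 14 were higher and 1 lower in each genotype. With totals alone 13 were higher and 1 lower in Fes-/-, and 14 higher and 1 lower in wild type. Jak2 rose by 5.24 ± 0.12 in Fes-/- and 5.29 ± 0.12 in wild type, Irf1 by 3.53 and 3.39, Stat3 by 2.77 and 2.76, and Irf2 by 2.02 and 1.98. Ifngr1, a chain of the interferon-gamma receptor, was the gene that fell, at -1.45 ± 0.08 in Fes-/- and -1.46 ± 0.08 in wild type.

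Of 9 genes that act on the stability, turnover or shedding of such ligands, 5 were higher and 3 lower in Fes-/-, and 4 higher and 3 lower in wild type, against 2 higher and 6 lower in each with totals alone. Cmtm6, whose product protects PD-L1 from degradation, rose by 1.79 ± 0.09 in Fes-/- and 1.68 ± 0.09 in wild type. Its relative Cmtm4 fell to 2.47 ± 0.0894 TPM in Fes-/- LPS against 22.9 ± 1.70 TPM in Fes-/- PBS libraries, and to 2.04 ± 0.172 TPM in wild-type LPS against 21.3 ± 0.888 TPM in wild-type PBS libraries (log2 change -2.23 ± 0.08 in Fes-/- and -2.44 ± 0.09 in wild type). Adam17, a surface protease, rose by 1.61 in Fes-/- and 1.63 in wild type. Spop had 0.77 ± 0.07 in Fes-/- and 0.68 ± 0.07 in wild type with TMM factors, but -0.16 and -0.24 with totals alone.

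Of the T-cell receptors for these ligands 6 of 10 listed genes were tested, with 2 higher and 2 lower in each genotype, against 1 higher and 4 lower in Fes-/- and 2 higher and 4 lower in wild type with totals alone. Cd28, the receptor of Cd80 and Cd86, was itself measured at 5.39 ± 0.418 TPM in Fes-/- LPS against 66.5 ± 6.36 TPM in Fes-/- PBS libraries, and at 6.28 ± 1.17 TPM in wild-type LPS against 80.7 ± 23.3 TPM in wild-type PBS libraries. It fell by 2.65 in Fes-/- and 2.74 in wild type on the log2 scale. The Cd3 genes in the same libraries were at most 0.110 TPM. Icos fell by 1.27 in Fes-/- and 1.13 in wild type, and Cd244a, the gene of 2B4, had 1.29 ± 0.26 in Fes-/- and 2.11 ± 0.27 in wild type with TMM factors, but 0.35 (not called) and 1.20 with totals alone. Pdcd1, the gene of PD-1, had 0.759 ± 0.0783 TPM in Fes-/- LPS against 0.0661 ± 0.0699 TPM in Fes-/- PBS libraries, and 0.690 ± 0.0988 TPM in wild-type LPS libraries, while it was listed at 0 in the wild-type PBS libraries.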

How the data were processed

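The deposited raw counts, 1 column per library and 1 row per Ensembl gene, were the basis of all tests. TPM values were used as deposited by the authors, scaled to the same sum in each library. Per the submitters' processing notes the authors' tools were DESeq2 1.34.0, R 4.1.12, Picard 2.9.0 and STAR 2.7.8a, and the builds GRCm38 and mm9 are listed without a role. Lengths implied by counts and TPM lay within 1% of GENCODE M21 exon lengths for 9353 of 9487 genes (98.6%), so positions are from that annotation on GRCm38.

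The test was edgeR 4.0.16 under R 4.3.3 (filterByExpr, TMM, 1 mean per group over 12 libraries, robust quasi-likelihood F test, two-sided). Benjamini-Hochberg adjustment ran over all 15801 tested genes, and every adjusted p comes from this test unless another tool is named. The 5 comparisons were Fes-/- against wild type under LPS and under PBS, LPS against PBS within Fes-/- and within wild type, and the interaction. Alternatives were DESeq2 1.42.0, RLE factors, library totals alone, no filter, 1 CPM in 3 libraries, only those libraries being compared, limma 3.58.1 on log2(TPM + 1) and log2(TPM + 0.1), a replicate block, and each library left out. The test was also run on simulated counts with independent libraries, for Fes-/- against wild type under PBS alone. That run does not bear on the choice of scaling or on pairing.

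Same-numbered LPS and PBS libraries of a genotype deviated together from their group means (correlations of 0.169 to 0.337 for 6 pairs). The 12 pairs of other numbers within a genotype had -0.239 to 0.110. Some libraries of different genotype and number correlated as highly, such as wild-type PBS replicate 2 and Fes-/- PBS replicate 3 at 0.342. The numbers may therefore pair treatments within a genotype, but the labels do not state this. Between genotypes same-numbered libraries correlated at -0.386 to -0.0613, which gives no sign that numbers pair genotypes. The labels speak of biological replicates, give no origin of each library beyond that, and 1 batch for all. Named genes were all members, Fes, the 4 genes of smallest p per list and the 2 nearest profiles per member, except those of Pdcd1lg2. Cell-type markers, an overlapping antisense gene and the list genes that the results call chosen after their values were seen are named outside this rule. One marker gene is not reported here. The members, lists and tests were chosen with earlier results of these data known. Figures were drawn with matplotlib 3.10.9.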

Additional observations from a re-analysis of the deposited data

How the results depend on the processing

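Of 1034 alternative values for single members, 989 kept their direction and their side of the threshold. Of the other 45, 23 came from leaving out a library, 19 from library totals alone or TPM, and 3 from dropping the filter. With library totals alone, log2(TPM + 1) and log2(TPM + 0.1), in that order, Cd48 had -0.43, -0.47 and -0.47 in Fes-/- and -0.50, -0.53 and -0.53 in wild type, called each time. Under the same settings Cd276 had -0.25, -0.18 and -0.20 in Fes-/- and 0.34, 0.27 and 0.32 in wild type, and Cd80 had 0.27, 0.19 and 0.19 in Fes-/- and -0.083, -0.12 and -0.13 in wild type, none called. Pdcd1lg2 in wild type had 0.89 with totals alone, not called. Without a filter the count of members called between genotypes was 1 under LPS (Cd80) and 1 under PBS (Slamf7) in place of 0, the cause was not tested, and the interaction of Lgals9 was 0.0054. The filter of 1 CPM in 3 libraries left 9 members, without Pdcd1lg2, as did a fit on the PBS libraries alone. A pseudocount of 1 TPM gave log2 ratios of Cd274 over Pdcd1lg2 of 9.70 in Fes-/- LPS, 4.42 in Fes-/- PBS, 9.98 in wild-type LPS and 4.65 in wild-type PBS libraries, against 11.30, 7.15, 11.93 and 7.27 without it, since Pdcd1lg2 lies under 1 TPM.

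With each library left out, genotype differences near 0 changed sign without being called. Under LPS they ranged over -0.042 to 0.082 for Cd48, -0.040 to 0.29 for Cd86, -0.021 to 0.049 for Lgals9 and -0.013 to 0.042 for Slamf7. Under PBS they ranged over -0.14 to 0.49 for Cd276, -0.0021 to 0.18 for Cd80, -0.13 to 0.48 for Cd86, -0.061 to 0.21 for Lgals9 and -0.54 to 0.012 for Pdcd1lg2. The interaction ranged over -0.36 to 0.25 for Cd86, -0.022 to 0.19 for Icosl and -0.20 to 0.067 for Lgals9. A left-out library leaves 2 in its group, assumed to vary like the others. The LPS change of Cd276 in Fes-/- ranged over 0.46 to 1.09. With a block of replicate number within genotype, 10 of 10 members were higher under LPS in each genotype and 0 were called in the interaction. The genotype comparisons used a block of number shared across genotypes, and 0 members were called. Since the numbers gave no sign of pairing genotypes, that block does not bear on the genotype calls. Depth limits Pdcd1lg2, with 5 to 29 counts per library.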
